A study of Rattus norvegicus with 6 samples.

Results

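The genes described here encode the SR proteins, the hnRNP proteins and the snRNP proteins, the main RNA-binding families of pre-mRNA splicing. They are the rows whose symbol begins with Srsf and a digit, with Hnrnp or with Snrp, 42 of the 17093 genes in the deposited tables: 11 Srsf, 19 Hnrnp and 12 Snrp genes. Of these, 41 reached a value of 1 in at least 3 of the 6 libraries and were tested, and Snrpn did not. The RNA came from primary nucleus pulposus cells, the cells of the soft centre of the intervertebral disc, grown from male rats and used at passages 3 to 6. In 3 libraries, named serum-starved, the cells had been held for 48 h without fetal bovine serum. In the other 3, the controls, the cells were labelled untreated at 48 h and kept in DMEM-F12 medium with 10% serum. Strain, age and genotype are not given, and no label ties a library to an animal or culture of its own. The spread between samples that p-values rest on may therefore be technical.

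Splicing removes introns on a machine built from small nuclear ribonucleoproteins, or snRNPs. Each of these holds a short nuclear RNA, a ring of Sm proteins shared between particles, and a few proteins of its own. SR proteins carry an arginine- and serine-rich tail, bind exons and help the U1 and U2 particles find splice sites, while hnRNP proteins coat nascent RNA and often block sites that SR proteins favour. Many genes of both families also make transcripts with a premature stop codon that are destroyed, by which the proteins limit their own amount. A single value per gene, as deposited here, does not separate such transcripts from the coding ones.

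The 6 libraries held 11153 to 11254 genes at a value of 1 or more, and their values, treated as FPKM (fragments normalised to transcript length and to library size), summed to 447788 to 473452 in serum-starved and 522165 to 530095 in control cells. Read depth is unknown. Of 9 nucleus pulposus and chondrocyte-like markers in the tables, 6 were tested. The 9 summed to 65 to 68.7 in serum-starved and 127.4 to 187.3 in control libraries. Acan (77.5 ± 28.1 to 3.05 ± 0.333; SD, n = 3 each), Ncam1 (71.8 ± 0.819 to 34.7 ± 2.95), Sox9, Krt8 and Car12 fell, Car3 rose (1.03 ± 0.219 to 26.1 ± 0.852), Krt18 was listed at 0 in every library and Col2a1 was at most 0.06. The call of Krt8 held in 9 of 15 alternatives and was lost after same-total scaling. Cd24, too low to be tested, was at 0.0967 ± 0.0513 in control and 0.437 ± 0.107 in serum-starved libraries. Annulus fibrosus and tendon-like fibroblast markers, 7 genes, summed to 2979 to 3049 in serum-starved and 1839 to 2244 in control libraries. Of these Col1a1 (1799 ± 213 to 2697 ± 53.9), Fmod, Postn and Mkx rose, the last 3 by 6.03-fold, 3.39-fold and 2.96-fold, Thbs4 fell 2.18-fold, and Col1a2 and Scx were not called. Macrophage and leukocyte markers summed to 10.9 to 14.5 in serum-starved and 23.5 to 29.9 in control libraries over 6 genes, with Adgre1 at most 0.02. Of the pair tested, Cd14 fell from 24.8 ± 2.85 to 8.54 ± 1.86 and Cd68 rose 1.73-fold from 1.96 ± 0.467. Endothelial markers summed to 1.19 at most over 4 genes, and the 1 red blood cell marker in the tables to 0.03 at most. All 16 genes of a mitosis list fell, and their summed value was 54.3 to 67.3 in serum-starved against 523 to 657.1 in control libraries. The part of this change in growth state, and of the marker changes, in the results below was not tested. In bulk RNA, fewer cells of one type and less RNA per cell cannot be told apart.

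To show what stands in front of the most changed genes, the 250 bases before the transcription start are printed for the member with the largest fall in each family, and for Snrpb2, a snRNP gene that did not pass the test. They are RefSeq sequences of the GRCr8 assembly, 5′ to 3′ on the strand of the gene, with capitals at matches to the motifs given next, which were chosen after the changes were known. The capitals are CCAAT boxes in Snrpa and Hnrnpa1, an ETS site in Srsf7, and an NRF1 site and ETS sites in Snrpb2.
Snrpa, chr1:91618043-91618292, minus strand: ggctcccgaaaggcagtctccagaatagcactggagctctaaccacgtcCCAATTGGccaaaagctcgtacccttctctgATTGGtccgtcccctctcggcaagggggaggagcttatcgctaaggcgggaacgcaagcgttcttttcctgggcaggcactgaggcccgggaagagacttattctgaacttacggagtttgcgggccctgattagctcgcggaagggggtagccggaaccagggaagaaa
Hnrnpa1, chr7:136253868-136254117, plus strand: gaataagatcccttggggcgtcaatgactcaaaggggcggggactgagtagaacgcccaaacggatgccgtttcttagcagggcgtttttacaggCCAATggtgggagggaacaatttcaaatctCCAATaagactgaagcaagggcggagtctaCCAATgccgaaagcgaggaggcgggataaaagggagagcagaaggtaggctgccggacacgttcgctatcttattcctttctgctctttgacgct
Srsf7, chr6:20563802-20564051, plus strand: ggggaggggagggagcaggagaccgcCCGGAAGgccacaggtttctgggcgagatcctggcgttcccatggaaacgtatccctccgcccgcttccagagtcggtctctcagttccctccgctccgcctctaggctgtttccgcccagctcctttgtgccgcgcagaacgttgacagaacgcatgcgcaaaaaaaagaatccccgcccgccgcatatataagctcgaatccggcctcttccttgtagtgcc
Snrpb2, chr3:150852584-150852833, plus strand: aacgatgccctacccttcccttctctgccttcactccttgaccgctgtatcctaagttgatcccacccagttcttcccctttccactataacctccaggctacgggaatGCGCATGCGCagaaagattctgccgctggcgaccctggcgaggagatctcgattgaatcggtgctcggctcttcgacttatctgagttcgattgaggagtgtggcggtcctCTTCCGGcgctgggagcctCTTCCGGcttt

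Such letters were searched on either strand of the same stretch in 41 of the 42 members, all but Hnrnpll, and in the 9167 tested genes that had a promoter in the table. CCAAT, the box read by NF-Y, stood before 23 members (56.1%), of which 13 were hnRNP genes, against 36.4% of tested genes. The 23 include Hnrnpl and Hnrnpul2, which were not called, Srsf10, which rose, and Snrpn, which was not tested. The others fell, as did most members. The ETS letters CCGGAAG stood before 11 members (26.8%) against 16.8% of tested genes, and 4 of the 11 were SR and 5 snRNP genes. Of the 11, Srsf11 and Snrpb2 were not called and the others fell. CACGTG, the E-box read by MYC and its relatives, stood before 5 members, namely Hnrnpd, Hnrnpdl, Hnrnph2, Hnrnpm and Srsf3, or 12.2% against 8.55% of tested genes. Either E2F spelling, TTTGGCGC or TTTCCCGC, stood before Snrpd2, Hnrnpul1 and Srsf10, or 7.32% of members against 2.63% of tested genes. The NRF1 palindrome was found before Snrpb2, and the YY1 motif before none of the 41, against 1.92% and 0.556% of tested genes. A pair of the boxes in Snrpa overlap. Snrpa1, with the second largest fall of the snRNP genes, held none of these motifs. A match is a description of the letters and not a bound site, and the members were not chosen for it.

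The design asks how these transcripts differ between cells without and with serum. Most were lower in serum-starved cells: of the 41 tested members 33 fell, 2 rose and 6 missed the threshold. Their median log2 fold change was -0.45 against 0.03 over all 11493 tested genes. Over all tested genes, 29.4% were called lower and 31.7% higher by limma at a Benjamini-Hochberg adjusted p of 0.05 or less. In 31 members every serum-starved library lay below every control (32.5% of tested genes did so), and in 3 every serum-starved library lay above (35.7% of tested genes). The changes were mostly small: 4 members, Snrpa, Hnrnpa1, Snrpa1 and Snrpd1, fell by at least 1 on the log2 scale, a size called for 7.18% of all tested genes. The 42 values summed to 2624.52, 2471.67 and 2443.48 in serum-starved replicates 1, 2 and 3, and to 3794.47, 3560.78 and 3443.64 in control replicates 1, 2 and 3. All 3 serum-starved sums lay below all 3 control sums, and the mean was 1.43-fold lower. As a share of each library's total, the mean was 1.25-fold lower.

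These directions depend in part on how libraries are put on one scale, because control libraries sum to 1.14-fold more. When each library was scaled to the same total, the median of all tested genes moved from 0.03 to 0.20, 22 members fell and 5 rose, and over all tested genes 20.2% were lower and 46.1% higher. The share of calls that were higher went from 51.8% to 69.5% over all tested genes. Relative to the median of all tested genes, the members' median was -0.48 on the deposited scale and -0.46 after this scaling. Of the 35 members called, 23 kept their call in each of the 16 alternatives that tested them: Srsf2, Srsf3, Srsf5, Srsf7 and Srsf12, 8 hnRNP genes and all 10 called snRNP genes. The share of all called genes that did so is not given here, so this count has no background.

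**Figure D1:**
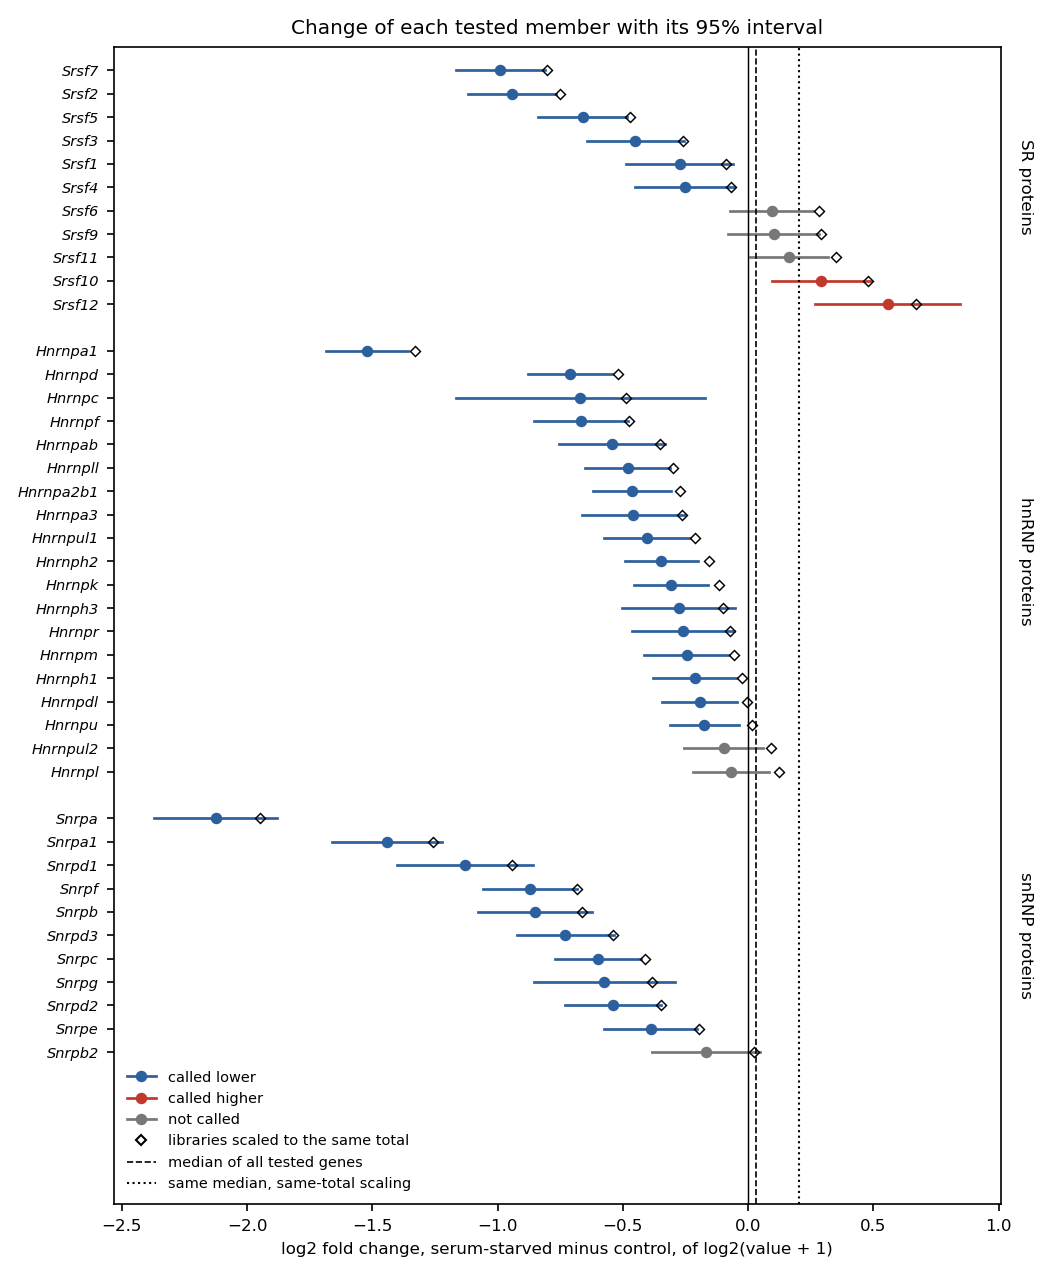
Log2 fold change of each tested member (serum-starved minus control, of log2(value + 1)) with its 95% interval from limma, in blue where called lower, red where called higher and grey where not called; open diamonds give the value after scaling each library to the same total, and vertical lines the median of all tested genes on either scale (0.03 and 0.20). All 19 hnRNP and 11 snRNP points on the deposited scale lie below 0, from -0.07 for Hnrnpl to -2.13 for Snrpa, while SR points run from -0.99 to 0.56.

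The snRNP genes showed the largest falls. Of 11 tested, 10 fell, none rose and Snrpb2 missed the threshold, where 29.4% of all tested genes were lower and 31.7% higher. The snRNP median log2 fold change was -0.73 and became -0.54 after same-total scaling, where again 10 fell. On that scale 20.2% of all tested genes were lower and 46.1% higher. The summed snRNP values were 507.22, 439.28 and 458.04 in serum-starved replicates and 773.55, 781.82 and 721.51 in control replicates. The mean was 1.62-fold lower without overlap, and 1.42-fold lower as a share of each library's total. With any 1 library left out, at least 10 snRNP genes fell, where 2792 to 3266 of 11228 to 11238 tested genes were lower.

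The proteins that belong to the U1 and U2 particles alone moved unequally. Snrpa (gene ID 292729), which encodes the A protein that grips a stem-loop of U1 RNA, stood at 8.58, 6.66 and 7.08 in serum-starved and 35.59, 32.23 and 39.59 in control libraries. The groups are far apart, the mean was 4.81-fold lower, and the log2 fold change was -2.13 ± 0.107 (SE), with limma's Benjamini-Hochberg adjusted p = 1.46e-06 (3.8e-07 to 3.09e-05 over the alternatives). Snrpc (gene ID 361808), the U1 C protein that contacts the 5′ splice site, fell less, from 68.2 ± 3.17 to 44.7 ± 3.45 (SD, n = 3 each). The 70K protein of the same particle is encoded by Snrnp70, whose symbol falls outside the rule; it was at 146.95, 164.77 and 166.04 in serum-starved and 129.16, 126.7 and 127.76 in control libraries, and rose by 0.31 ± 0.0668 (SE) on the log2 scale.

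In the U2 particle, the A′ and B″ proteins bind U2 RNA together. Snrpa1 (gene ID 100361269), which encodes A′, was listed at 14.15, 14.46 and 12.7 in serum-starved and 44.72, 35.84 and 37.26 in control libraries. Every serum-starved value was below 15, and the mean was 2.85-fold lower (log2 fold change -1.44 ± 0.0957 SE). Its partner Snrpb2 (gene ID 362223), encoding B″, was at 42.91, 39.35 and 35.99 in serum-starved against 46.8, 47.17 and 39.29 in control libraries. Here the groups overlap, the interval of the log2 difference ran from -0.38 to 0.05, and limma's Benjamini-Hochberg adjusted p was 0.154 (0.0175 to 0.838 over the alternatives). Without control replicate 3, and with library quality weights, Snrpb2 too was called lower.

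Among the genes of the Sm ring, all 7 tested fell. Snrpd1 (gene ID 291794) was at 36.52, 29.15 and 26.27 in serum-starved and 74.18, 64.8 and 64.38 in control libraries, 2.21-fold lower. Snrpf (gene ID 680737) was at 26.2, 24.95 and 24.72 against 50.53, 49.36 and 41.88, a log2 fold change of -0.87 ± 0.082 (SE). Snrpb, from which the B and B′ proteins are made, fell from 78.2 ± 3.61 to 43.1 ± 5.78, and Snrpd3 from 59.3 ± 5.96 to 35.3 ± 1.81.

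The most abundant ring gene moved least. Snrpe (gene ID 100360682) was at 121.22, 105.89 and 103.59 in serum-starved and 146.7, 152 and 134.63 in control libraries, 1.31-fold lower with no overlap. Snrpd2 (gene ID 680309) was at 72.42, 58.62 and 66.27 against 92.34, 99.52 and 95.33, and Snrpg (gene ID 681031) at 53.47, 45 and 57.81 against 78.82, 88.89 and 66.75. Control replicate 3 held the lowest control value of Snrpg, still above all serum-starved ones (log2 fold change -0.57 ± 0.122 SE). The ratio of Snrpd1 to Snrpe was 0.277 ± 0.0239 in serum-starved and 0.470 ± 0.0403 in control libraries (SD, n = 3 each).

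Snrpn (gene ID 81781), the imprinted gene whose product takes the place of the B protein in neurons, was listed at 0.38, 0.37 and 0.67 in serum-starved and 0.51, 0.65 and 0.2 in control libraries. No library reached 1, so it was not tested. The member just inside that limit was Srsf12, with 5 of 6 libraries at 1 or more.

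**Figure D2:**
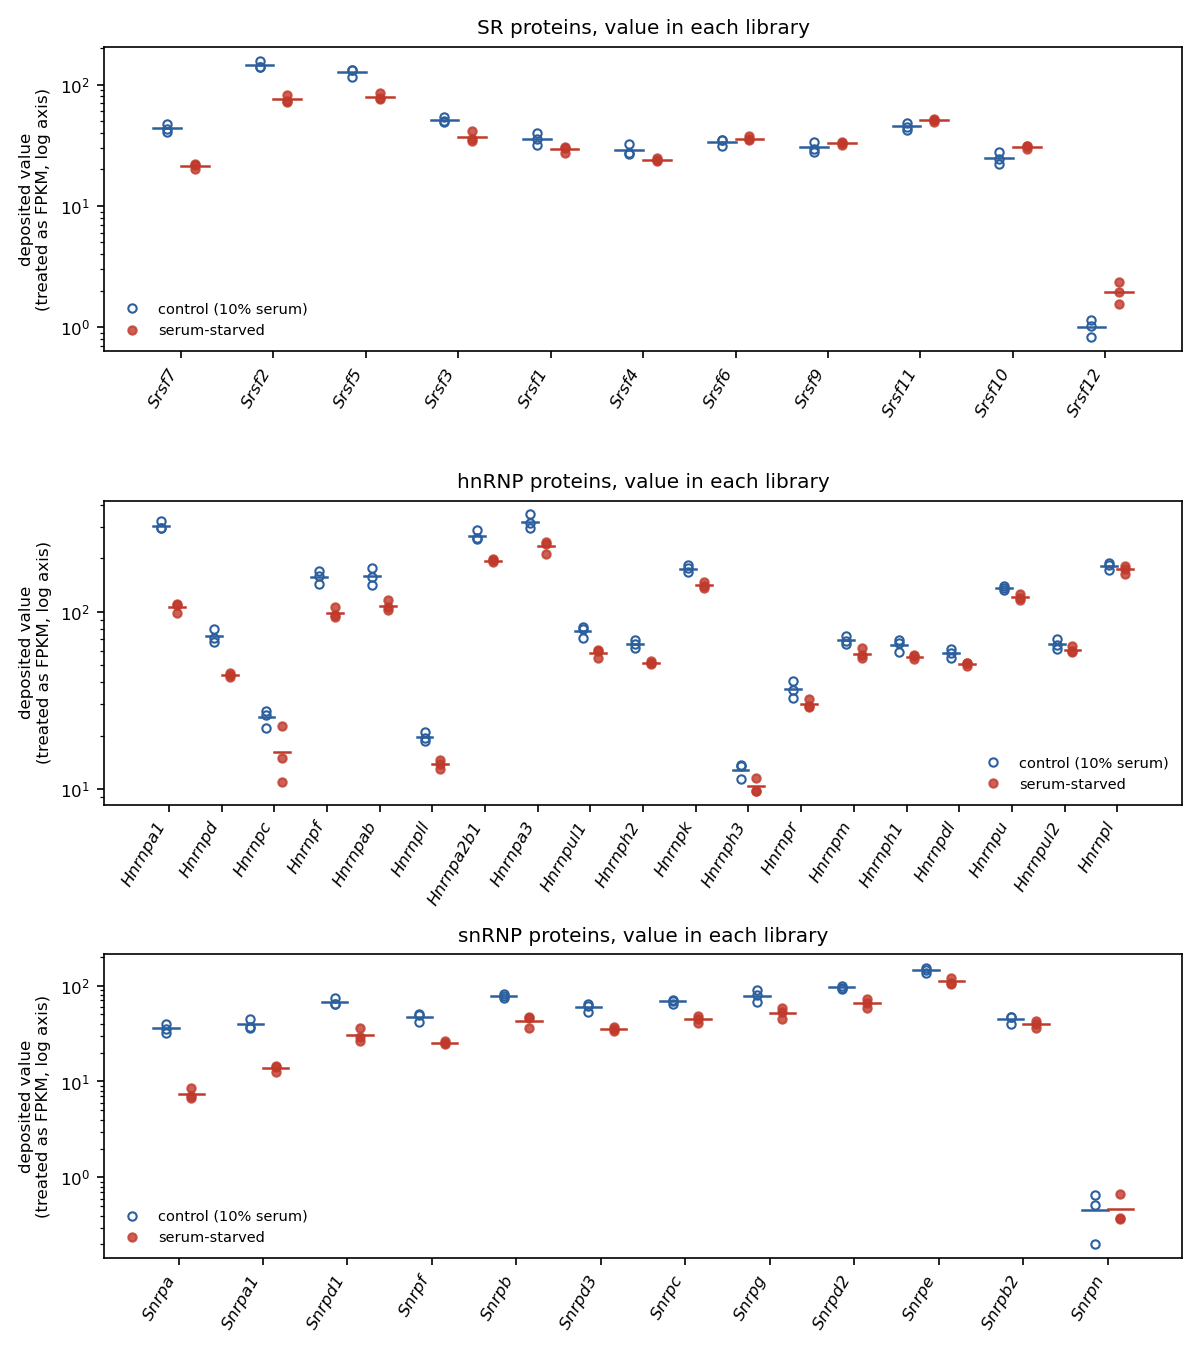
Deposited value of each of the 42 members in each library (log axis), with open blue circles for control and filled red circles for serum-starved libraries and short lines at the means; genes are ordered within a family by log2 fold change. Snrpa, Hnrnpa1, Snrpa1 and Snrpd1 show the widest gaps between means, and the groups of Snrpb2, Snrpn, Hnrnpc, Hnrnph3, Hnrnpl, Hnrnpul2, Srsf6 and Srsf9 overlap.

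The hnRNP genes fell together but mostly by little. Of 19 tested, 17 fell, none rose, and Hnrnpl and Hnrnpul2 missed the threshold. Over all tested genes 29.4% were lower and 31.7% higher. The hnRNP median log2 fold change was -0.35. After same-total scaling 8 fell and none rose, where 20.2% of all tested genes were lower and 46.1% higher. The median was then -0.16 against 0.20 over all tested genes. The 8 were Hnrnpa1, Hnrnpa2b1, Hnrnpa3, Hnrnpab, Hnrnpd, Hnrnpf, Hnrnpll and Hnrnpul1, the same 8 whose call held in every alternative. The number that fell was also 10 without serum-starved replicate 3 or without control replicate 1, and 11 without control replicate 2. In these fits 2938 of 11228, 2877 of 11235 and 2792 of 11232 tested genes were lower. Summed values were 1688.1, 1619.96 and 1570.27 in serum-starved and 2423.74, 2214.57 and 2182.95 in control libraries. The mean was 1.40-fold lower, and 1.22-fold lower as a share of each library's total.

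Hnrnpa1 (gene ID 29578), which binds exonic silencers and opposes SR proteins, stood apart in size. It was at 110.41, 109.32 and 98.21 in serum-starved and 323.44, 298.16 and 295.66 in control libraries, 2.89-fold lower, with a log2 fold change of -1.52 ± 0.0717 (SE). It made up 6.54%, 6.75% and 6.25% of the summed hnRNP values in serum-starved and 13.3%, 13.5% and 13.5% in control libraries. RefSeq names 51 pseudogenes of Hnrnpa1 in the GRCr8 assembly, more than of any other member, and 1 of them is in the tables, listed at 0 in all libraries. No source used here says how fragments matching such copies were divided, so the level of Hnrnpa1 is uncertain.

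The other A/B genes moved less. Hnrnpa2b1 (gene ID 362361), whose products bind and carry mRNAs, was at 197.14, 194.43 and 190.56 in serum-starved and 289.97, 260 and 255.7 in control libraries. Hnrnpa3 (gene ID 362152), the most abundant member of all 42, was at 242.2, 247.11 and 212.39 against 353.46, 315.21 and 297.02. Both were without overlap and 1.38-fold lower. The ratio of Hnrnpa1 to Hnrnpa2b1 was 1.14 ± 0.0214 in control and 0.546 ± 0.0265 in serum-starved libraries, and Hnrnpab fell from 158.7 ± 18.0 to 108.2 ± 6.98. Hnrnpa0 is listed under the symbol LOC681410 and so stands outside the rule. It was at 27.2 ± 0.230 in control and 27.9 ± 2.86 in serum-starved libraries, with a log2 difference between -0.15 and 0.22. After same-total scaling it was called higher at 0.22, near the median of 0.20 over all tested genes.

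Hnrnpd (gene ID 79256), also called AUF1, binds AU-rich elements of short-lived mRNAs. It was at 44.95, 44.15 and 42.64 in serum-starved and 79.45, 67.56 and 70.94 in control libraries, 1.65-fold lower (log2 fold change -0.71 ± 0.0734 SE). Its paralogue Hnrnpdl fell from 58.4 ± 3.56 to 50.9 ± 1.27 on the deposited scale, a call that held in 8 of 16 alternatives, with limma's adjusted p from 0.00749 to 0.961, the latter after same-total scaling. The ratio of Hnrnpd to Hnrnpdl was 1.24 ± 0.0741 in control and 0.863 ± 0.00566 in serum-starved libraries.

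Of the genes whose proteins bind runs of G, Hnrnpf (gene ID 64200) changed most, at 106.48, 95.34 and 93.96 in serum-starved against 169.62, 158.93 and 143.31 in control libraries. Hnrnph2, Hnrnph3 and Hnrnph1 fell 1.28-fold, 1.23-fold and 1.16-fold, and none of the 3 was called after same-total scaling. Hnrnpc (gene ID 290046), which binds U tracts and keeps cryptic exons out of mRNA, had the largest standard error of the tested members. It was at 14.91, 22.69 and 10.96 in serum-starved and 26.32, 27.73 and 22.13 in control libraries, so serum-starved replicate 2 lay above control replicate 3. Its log2 fold change of -0.67 had a SE of 0.217, and its call held in 10 of 16 alternatives (limma, Benjamini-Hochberg adjusted p = 0.0262, from 0.00149 to 0.0835 over the alternatives).

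Hnrnpk, whose protein binds C-rich RNA and DNA, fell 1.24-fold from 175.1 ± 7.87, and Hnrnpu, a scaffold of nuclear RNA and chromatin, 1.13-fold from 136.2 ± 3.09. Hnrnpr, Hnrnpm and Hnrnpul1 fell 1.21-fold, 1.19-fold and 1.33-fold. After same-total scaling only Hnrnpul1 of these 5 was called, and the log2 fold change of Hnrnpu became 0.02. The call of Hnrnpu held in 7 of 16 alternatives, the fewest of the called members. Hnrnpl (gene ID 80846), which binds CA repeats, was at 180.92, 164.18 and 174.39 in serum-starved and 183.68, 172.67 and 188.66 in control libraries. The groups overlap and the log2 difference lay between -0.22 and 0.08 (limma, Benjamini-Hochberg adjusted p = 0.391, from 0.1 to 0.734 over the alternatives). Hnrnpll, its less abundant paralogue known from lymphocytes, fell 1.42-fold from 19.7 ± 1.14, and Hnrnpul2 had a log2 difference between -0.26 and 0.06.

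The SR genes moved in both directions. Of 11 tested, 6 fell, 2 rose and 3 missed the threshold, where 29.4% of all tested genes were lower and 31.7% higher. The median log2 fold change was -0.25. After same-total scaling 4 fell and 5 rose, where 20.2% of all tested genes were lower and 46.1% higher. The median was then -0.07 against 0.20 over all tested genes. After quantile normalization 4 fell and 4 rose, where 26.7% of all tested genes were lower and 34.3% higher. The number that rose was 1 without serum-starved replicate 2, without control replicate 2, or with the filter at 5, which leaves out Srsf12 and calls 32.6% of the genes it tests lower and 30% higher. Without serum-starved replicate 2 or 3, 4 fell, where 3032 of 11230 and 2938 of 11228 tested genes were lower. Summed values were 429.2, 412.43 and 415.17 in serum-starved and 597.18, 564.39 and 539.18 in control libraries. The mean was 1.35-fold lower, and 1.18-fold lower as a share of each library's total.

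Srsf2 and Srsf5, the most abundant SR genes, fell. Srsf2 (gene ID 494445), also known as SC35, was at 81.89, 72.65 and 71.83 in serum-starved and 156.78, 140.12 and 140.68 in control libraries. It was 1.93-fold lower (log2 fold change -0.94 ± 0.0769 SE) and went from 25.7% ± 0.781 to 18.0% ± 0.949 of the summed SR values (SD, n = 3 each). Srsf5 (gene ID 29667), first found in rat as a gene of regenerating liver, was at 77.29, 75.93 and 85.41 against 132.07, 131.11 and 116.03. It was 1.59-fold lower without overlap.

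Srsf7 (gene ID 362687) and Srsf3 (gene ID 361814) encode small SR proteins that also help mRNA leave the nucleus. Srsf7 was at 21.8, 22.2 and 20.15 in serum-starved and 47.36, 42.83 and 40.32 in control libraries, 2.03-fold lower and the largest fall of the family. Srsf3 was at 41.7, 35.29 and 34.55 against 53.95, 50.35 and 48.83, 1.37-fold lower. The groups were apart for either gene, and their ratio, Srsf7 to Srsf3, was 0.851 ± 0.0261 in control and 0.578 ± 0.0533 in serum-starved libraries. Srsf1, the founding member of the family, fell from 35.8 ± 4.24 to 29.3 ± 1.73 and Srsf4 from 28.9 ± 3.28 to 24.0 ± 0.714, but neither was called after same-total scaling, and their calls held in 9 and 10 of 16 alternatives.

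The members that rose are unusual SR proteins. Srsf10 (gene ID 362630), which represses splicing when it loses its phosphates, was at 30.94, 31.4 and 29.34 in serum-starved and 27.83, 24.5 and 22.26 in control libraries, 1.23-fold higher. Its call held in 14 of 16 alternatives, with an adjusted p from 0.00151 to 0.0569 (limma). Srsf12 (gene ID 297962), another SR protein reported to repress splicing, rose from 1.03, 0.83 and 1.15 to 1.57, 2.36 and 1.94, a log2 fold change of 0.56 ± 0.127 (SE) at the lowest level of the tested members.

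Srsf11 (gene ID 502603), the third most abundant of the family, was at 49.45, 52.39 and 50.86 in serum-starved and 48.64, 42.61 and 45.02 in control libraries. Every serum-starved value was the higher, but limma gave a Benjamini-Hochberg adjusted p = 0.0668 on the deposited scale, in a range of 0.00321 to 0.233 over the alternatives. Srsf9 (gene ID 288701) was at 32.98, 31.79 and 33.38 against 27.98, 33.82 and 29.67, with overlap and a log2 difference between -0.08 and 0.28 (limma, adjusted p = 0.287, from 0.00906 to 0.703). Srsf6 had a log2 difference between -0.07 and 0.26. All 3 were called higher after same-total scaling, where 46.1% of all tested genes were higher and the all-gene median was 0.20. On that scale Srsf11 was at 0.35, Srsf9 at 0.29 and Srsf6 at 0.28.

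By structure, of the 5 SR genes with paired RNA recognition motifs (Srsf1, Srsf4, Srsf5, Srsf6 and Srsf9) 3 fell, and of the 6 with a single motif (Srsf2, Srsf3, Srsf7, Srsf10, Srsf11 and Srsf12) 3 fell and 2 rose. The median log2 fold changes were -0.25 and -0.14, and the second became 0.04 after same-total scaling.

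**Figure D3:**
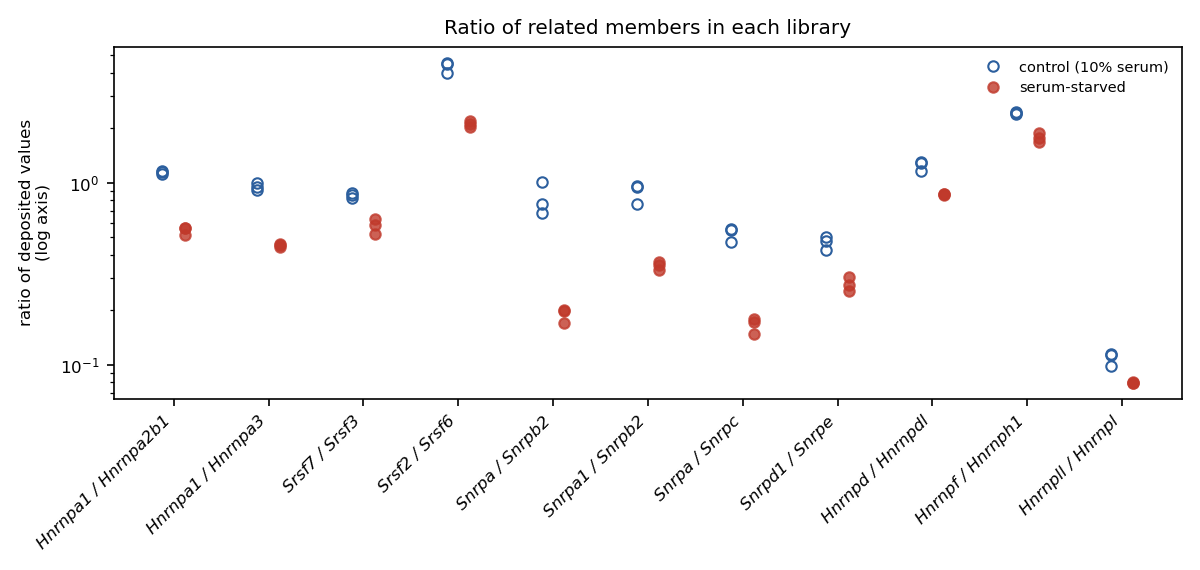
Ratio of the deposited values of related members in each library (log axis), open blue circles for control and filled red circles for serum-starved libraries. The 11 ratios, picked after the values were seen, do not depend on the scaling of a library, and the 3 serum-starved points lie below the 3 control points in each.

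Ratios within a library show how unequal the changes were whatever the scale. Snrpa stood at 0.817 ± 0.169 of Snrpb2 in control and 0.189 ± 0.0169 in serum-starved libraries, and at 0.525 ± 0.0468 and 0.166 ± 0.0164 of Snrpc. Srsf2 was 4.35 ± 0.305 times Srsf6 in control and 2.10 ± 0.0798 times in serum-starved libraries. Hnrnpf was 2.42 ± 0.0389 and 1.77 ± 0.0974 times Hnrnph1. A ratio does not show which of its genes changed.

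Genes of the same machinery that the rule leaves out were counted in 10 further lists. Their counts on the deposited scale stand beside 29.4% lower and 31.7% higher over all tested genes. Here too the scale matters: after same-total scaling more members rose than fell in 7 of the 10, against 46.1% higher and 20.2% lower over all tested genes. Among other proteins of U2, SF3 and U2AF, which recognise the branch point and the 3′ splice site, 8 of 16 fell, 1 rose and 7 were not called (median -0.21). Sf1, the branch point binding protein, fell from 77.6 ± 5.97 to 47.0 ± 4.39, U2af2 1.59-fold and U2af1 1.36-fold, while Sf3b1 was at 83.4 ± 2.13 in serum-starved and 64.4 ± 7.48 in control libraries, and rose. After same-total scaling 3 fell and 3 rose. In the list of other snRNP proteins, 2 of 7 fell (Snrnp27 and Snrnp40) and 2 rose (Snrnp70 and Snrnp200), and 2 fell and 3 rose after same-total scaling.

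Some LSm proteins form rings like those of Sm proteins, on U6 RNA or on decaying mRNA. The list holds genes by the Lsm name and is not limited to those rings. Of 13 LSm genes 8 fell, 2 rose (Lsm6 and Lsm14b) and 3 did not pass (median -0.52), and after same-total scaling 7 fell and 3 rose. Lsm4 was 2.67-fold, Lsm2 2.56-fold and Lsm5 2.11-fold lower. Of 16 genes that assemble Sm rings and bring them to the nucleus 6 fell, 2 rose (Gemin4 and Snupn) and 8 did not pass (median -0.12), against 4 that fell and 5 that rose after same-total scaling. Gemin8, Smn1 (the survival motor neuron protein) and Prmt5, which methylates Sm proteins, fell 1.53-fold, 1.44-fold and 1.39-fold. Of 28 genes of the tri-snRNP, the PRP19 complex and the spliceosome helicases 7 fell, 3 rose and 18 did not pass. The shares over all tested genes were 29.4% lower and 31.7% higher. Prpf39, Prpf18 and Aqr rose 1.69-fold, 1.41-fold and 1.24-fold and Sart1 fell 1.37-fold. After same-total scaling 2 of these 28 fell and 11 rose.

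Kinases that phosphorylate SR proteins moved in different directions. Clk1, a nuclear kinase of SR proteins, was at 52.37, 54.04 and 54.28 in serum-starved and 21.54, 20.13 and 17.5 in control libraries, 2.72-fold higher, Clk4 was 2.22-fold and Prpf4b 1.48-fold higher. Srpk1, which acts on SR proteins in the cytoplasm, fell 1.32-fold, and Ppp1ca, a phosphatase, and Tnpo3, the import receptor of SR proteins, fell as well. These 6 were the called genes of the 11 tested in this list, and 7 rose and 2 fell after same-total scaling. Of 21 SR-related genes, which carry similar tails, 12 rose, 4 fell and 5 did not pass (median 0.19), against 15 and 1 after same-total scaling. Among all tested genes 31.7% rose and 29.4% fell on the deposited scale, and 46.1% and 20.2% after same-total scaling. Tra2a was 1.44-fold and Nktr 1.42-fold higher and Rnps1 1.49-fold lower. The other genes of this list that fell, Tra2b, Scaf1 and Ppig, were not called after same-total scaling. Of the 12 that rose, Tra2a, Nktr, Luc7l, Luc7l3 and Rsrc2 kept their call in all 16 alternatives and the other 7 in 7 (Pnn) to 13 (Son).

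Among hnRNP-type proteins under other symbols 8 of 15 fell, 1 rose (Cirbp) and 6 did not pass (median -0.28), against 5 and 2 after same-total scaling. Ewsr1 and Raly fell 1.78-fold and 1.48-fold. Of 24 tested genes of other splicing regulators, 8 rose, 7 fell and 9 were not called, against 14 and 3 after same-total scaling. Over all tested genes 31.7% rose and 29.4% fell on the deposited scale, and 46.1% and 20.2% after same-total scaling. Celf2 rose 4.33-fold from 2.17 ± 0.339, Tia1, which promotes U1 recruitment to weak sites, 2.84-fold, and Elavl2 2.33-fold. Of 15 genes of the exon junction complex and nonsense-mediated decay 5 fell, 3 rose and 7 did not pass, with Upf2 1.55-fold higher, Smg9 1.46-fold lower and Magohb 1.41-fold lower, the last a call that held in 10 of 16 alternatives. Upf3b was also called higher, and Magoh, Rbm8a and Upf3a lower, and after same-total scaling 4 rose and 1 fell.

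**Figure D4:**
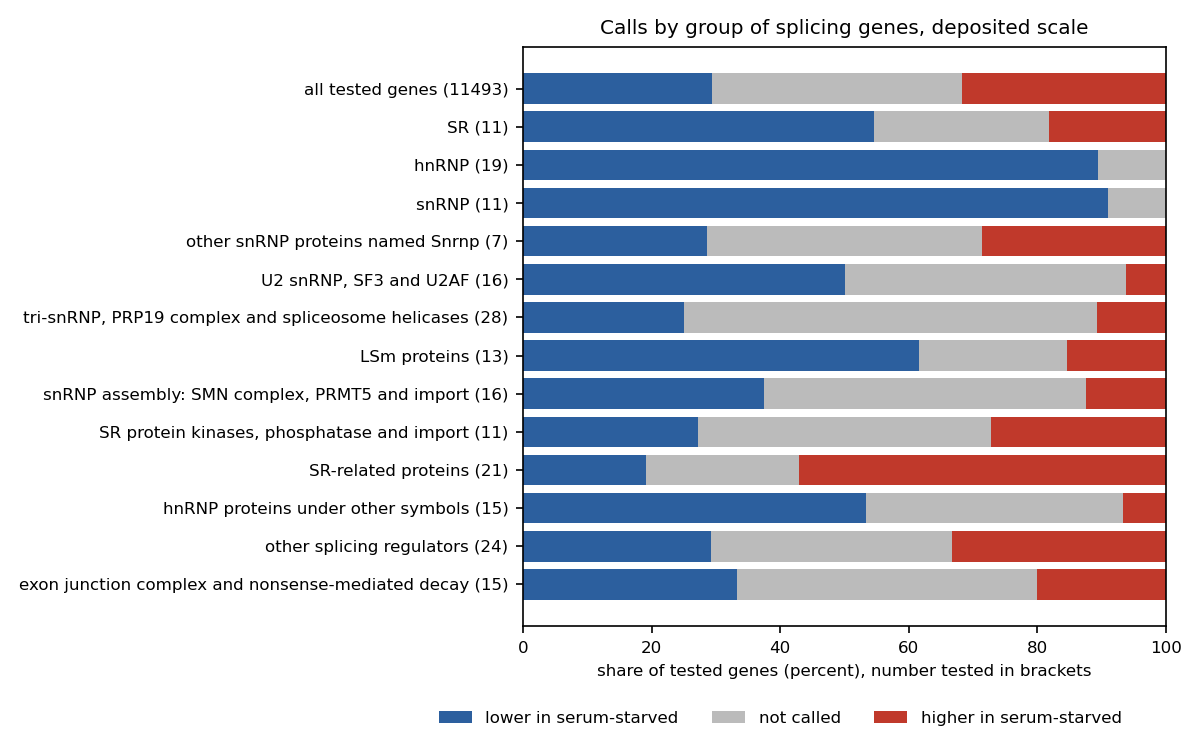
Share of the tested genes of each list that limma called lower (blue), did not call (grey) or called higher (red) in serum-starved cells on the deposited scale, with the number tested in brackets. For hnRNP and snRNP genes 17 of 19 and 10 of 11 were lower against 29.4% of all tested genes. SR-related genes have the widest red bar, 12 of 21 against 31.7% of all tested genes. Of these 12, 5 kept their call in all 16 alternatives.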

How the data were processed

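RNA of 3 serum-starved and 3 control samples of rat nucleus pulposus cells was sequenced. The submitters' processing notes name bcl2fastq 2.0, HISAT2, StringTie, DESeq2 and limma, without parameters, and the mouse build mm10, although the gene IDs are those of rat. The deposited tables hold 1 value per gene and sample, to 2 decimals, with no unit in the headers. They were treated as FPKM from the authors' StringTie step, on the form of the values. Strand and multi-mapping rules are not given in the sources used here, so genes with many near-identical copies, Hnrnpa1 first, have uncertain levels. Read depth is unknown, which leaves the spread between samples as the measure of precision.

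Values were taken as log2(value + 1) for genes at 1 or more in at least 3 of 6 libraries, and fitted with limma 3.58.1 in R 4.3.3 (mean-variance trend, treatment as the only term, 4 residual degrees of freedom) over 11493 genes. A gene was called at a Benjamini-Hochberg adjusted p of 0.05 or less. Fold changes on this scale understate those of low genes, and folds in the text are ratios of group means. Intervals are 95%. An exact permutation test of 3 against 3 cannot go below 0.1 and was not used. In simulated data, 72% of genes changed 1.5-fold and 95% of genes changed 2-fold were recovered among 11379 tested genes, with 3 false calls. The changed genes, 100 at each fold, left out genes at low levels, and no difference in library totals was simulated. These rates therefore do not cover low members such as Srsf12 or calls that depend on the scaling. Far fewer genes were changed than the 3640 called higher and 3384 called lower here, and genes were drawn independently of each other. The 3 false calls are therefore no guide to the number of false calls in these data.

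The members and gene lists were chosen with earlier results of these data known. Values in all 6 libraries are given, per family, for the 4 called members with the largest fall, the 4 with the largest rise, the 3 most abundant and the one with the highest adjusted p. From other lists up to 3 called genes with the largest change are named. Some genes of these lists are counted but not reported here by name. Further genes, the 11 ratios, the 6 motifs and the gene set the motif shares were set against were chosen after values were seen, and in the printed promoters Snrpb2 replaced Snrpa1 once Snrpa1 was seen to hold no motif. Motif shares over all 33469 promoters of the RefSeq table were 34.0% for CCAAT, 7.27% for ETS, 5.59% for the E-box, 1.21% for E2F, 0.762% for NRF1 and 0.230% for YY1. The 16 alternatives were 3 scalings, 2 pseudocounts, 2 filters, library weights, no trend, a replicate block and 6 fits that left out 1 library each. The labels name no batch.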

Additional observations from a re-analysis of the deposited data

How the results depend on the processing

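Same-total scaling changed most. It gave 5 SR genes higher, a SR median of -0.0681, 8 hnRNP genes lower, a hnRNP median of -0.16, a snRNP median of -0.54 and a median of 0.20 over all tested genes. Quantile normalization gave 4 SR genes higher and medians of -0.16 for SR, -0.25 for hnRNP, -0.59 for snRNP and 0.0653 for all tested genes. The filter at 5 gave 1 SR gene higher and an all-gene median of -0.0106, median-ratio scaling an all-gene median of -0.0099, no filter one of 0.0138, and library weights a SR median of -0.20. Directions reversed for Hnrnpl (0.12 after same-total scaling, 0.0732 after quantile normalization), Hnrnpul2 (0.0920 and 0.0753), Hnrnpu (0.0170 after same-total scaling) and Snrpb2 (0.0214 after same-total scaling). With 1 library left out, 1 to 3 SR genes were higher and 4 to 5 lower, 10 to 15 hnRNP genes and 10 to 11 snRNP genes were lower, the SR median ran from -0.27 to -0.17, and the all-gene median from 0.0085 to 0.0424. The cause of these shifts was not tested. Taken over all tested genes, samples with the same replicate number did not deviate together (r = 0.0367, -0.1622 and 0.1005 for replicates 1, 2 and 3). Serum-starved replicate 1 correlated best with control replicate 2 (0.1639). With the replicate block, 3508 genes were higher and 3293 lower, with 2 SR genes higher and 6 lower, and 15 hnRNP and 10 snRNP genes lower. Depth is unknown, so its limit on low members such as Srsf12 and Snrpn cannot be given.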

Other observations

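Within each group the libraries were ordered alike for many members. Among the 41 tested members serum-starved replicate 1 held the highest serum-starved value for 28 (68.3%, against 41.9% of all tested genes) and control replicate 1 the highest control value for 27 (65.9% against 36.9%). Serum-starved replicate 3 was lowest for 22 (53.7% against 35.7%) and control replicate 3 for 25 (61.0% against 36.7%). For the members, then, replicate 1 was most often highest and replicate 3 most often lowest in both groups. Correlations by replicate number were not computed over the members alone.

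RefSeq names 136 pseudogenes of 23 members in the GRCr8 assembly. After the 51 of Hnrnpa1 come 10 each of Snrpc and Srsf3, 8 of Snrpg, 7 each of Hnrnpk and Srsf7 and 6 of Hnrnpc. Of all these, 2 are in the tables, one listed at 0 in every library and the other at 0.02 at most.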
